A study of Mus musculus with 8 samples.

Results

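The genes described here are 33 that encode the enzymes, regulators and carriers of cholesterol synthesis and of fatty acid synthesis. They were chosen by symbol from the 24453 genes of the table, and all 33 were measured and passed the filter on low values. By role they are 8 genes of the mevalonate steps, 11 of the squalene and sterol steps, 6 of regulation and sterol transport, and 8 of the fatty acid steps. They were measured in messenger RNA of flow-sorted mouse T cells that were CD4-positive and Foxp3-positive, in 2 libraries of the T138 line, 3 of the T143 line and 3 of wild-type (WT) mice. Foxp3 is the transcription factor that defines regulatory T (Treg) cells. The derivation label is nuclear transfer for T138 and T143 and wildtype for WT. Mice made from the nucleus of a T cell inherit its rearranged receptor genes, so each line stands for 1 receptor specificity. Per the series' design text, T138 models nTreg and T143 aTreg development (natural and agonist-induced). The strain label of all 8 libraries, WT included, is NOD-Foxp3GFP-Rag1-/-, and no treatment was given. The labels name no age. Titles, descriptions and model labels give the groups used here, although the source name points to T138 for T143 replicate 1 and to T143 for WT replicate 1.

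Cholesterol is built from acetyl-CoA through mevalonate, isoprenoid diphosphates, squalene and lanosterol, and branches of the mevalonate route supply the lipid anchors of small GTPases. Most of these genes are targets of the sterol regulatory element-binding proteins (SREBPs), which the escort protein SCAP carries out of the endoplasmic reticulum when sterols are low and which the INSIG proteins hold back when sterols are plentiful. SREBP-2 is best known for sterol genes and SREBP-1 for fatty acid genes. In T cells the pathway rises with activation and growth, and mevalonate metabolism is known to be needed for the function of Treg cells.

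Recovered depth ran from 7.83 to 22.64 M reads per library (M, reads in units of 1e+06), and the values below are normalised read counts on a common total of 15.59 M. A count of 3 reads, the limit that a count of 0 allows, is worth 2.07 to 5.97 units depending on the library and covers counting error only. Foxp3 was at 41854 and 41161 (T138), 3920.5, 6299 and 8694 (T143) and 29773, 36362 and 35359.6 (WT), and all 5 Treg markers were called lower in T143 than in T138. Transcripts of other cells moved with the groups. The 10 myeloid markers summed to 0.0319 to 0.167% of signal in T138, 0.629 to 3.7% in T143 and 0.00102 to 0.00512% in WT, and none of the 10 was at 0 throughout a group. The 7 dendritic cell and MHC class II markers took 0.49 to 0.649% in T138, 0.0433 to 0.179% in T143 and 0.00783 to 0.0109% in WT. The 6 cell cycle genes took 0.0253 to 0.0292%, 0.0454 to 0.133% and 0.0152 to 0.0607%. Erythroid markers were at most 0.0736% and B cell markers at most 0.00324%. Xist, which is transcribed in female cells, was at 19143 to 24992 in T143 and at most 129.9 elsewhere, so sex and line cannot be told apart in comparisons with T143. In such bulk samples, fewer cells of a type and less RNA per cell cannot be told apart. The part that other cells have in the results below was not tested beyond the alternatives given.

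Some genes of the mevalonate, sterol and fatty acid steps were called higher in T143 than in T138, and 1 late sterol gene was called lower. Between T143 and T138, 11 of 33 members passed the test (limma across all genes, Benjamini-Hochberg adjusted p under 0.05, which is also what passed and called mean below where no other tool is named), against 21% of all 15547 genes tested. Of the 11, 10 were higher in T143, which is 30.3% of members against 10.8% of all genes, and 1 was lower, 3.03% against 10.2%. The median member change was 0.63 on the log2(value + 1) scale, and that of all genes 0.15. Quantile normalization moved the median of all genes to 0.01 and that of the members to 0.58. It gave 13 member calls (39.4%, against 22.1% of all genes). Median centring gave 8 (24.2%, against 19.2%), and Dhcr7 (adjusted p = 0.0602), Fasn (0.0551) and Msmo1 (0.0542) no longer passed. On recovered reads, edgeR called 9 members (27.3%, against 17.5% of all genes) and DESeq2 16 (48.5%, against 28.1%). The 3 T143 libraries lay above both T138 libraries for 21 members (63.6%, against 28% of all genes) and below both for 7 (21.2%, against 23.7%). The group mean was lowest in T138 for 21 members (63.6%, against 42.3% of all genes) and highest in T143 for 19 (57.6%, against 40.7%). WT was the highest for 9 (27.3%, against 31.4%) and the lowest for 7 (21.2%, against 27.7%), T138 the highest for 5 (15.2%, against 28%) and T143 the lowest for 5 (15.2%, against 30%). Leaving out T138 replicate 1 lowered the count to 6 (18.2%, against 13.2% of all genes), T138 replicate 2 to 4 (12.1%, against 8.66%) and T143 replicate 3 to 7 (21.2%, against 17.7%). Without T143 replicate 2 it was 3, or 9.09%, which is below the 12.9% of all genes. It was 5 (15.2%, against 10.8%) when the library richest in neutrophil transcripts was left out of each line (T138 replicate 1 with T143 replicate 3). A covariate for the myeloid marker level left 1 member past the threshold (3.03%, against 5.13% of all genes), and 13 had an unadjusted p under 0.05. That level itself differed between the groups (median marker change 3.99), so the covariate cannot be told apart from the line. Under the covariate 7 of the 11 called changes were larger, among them Mvk (2.13) and Fdps (2.44). The other 4 were smaller, among them Fasn (0.22) and Sqle (0.015).

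**Figure D1:**
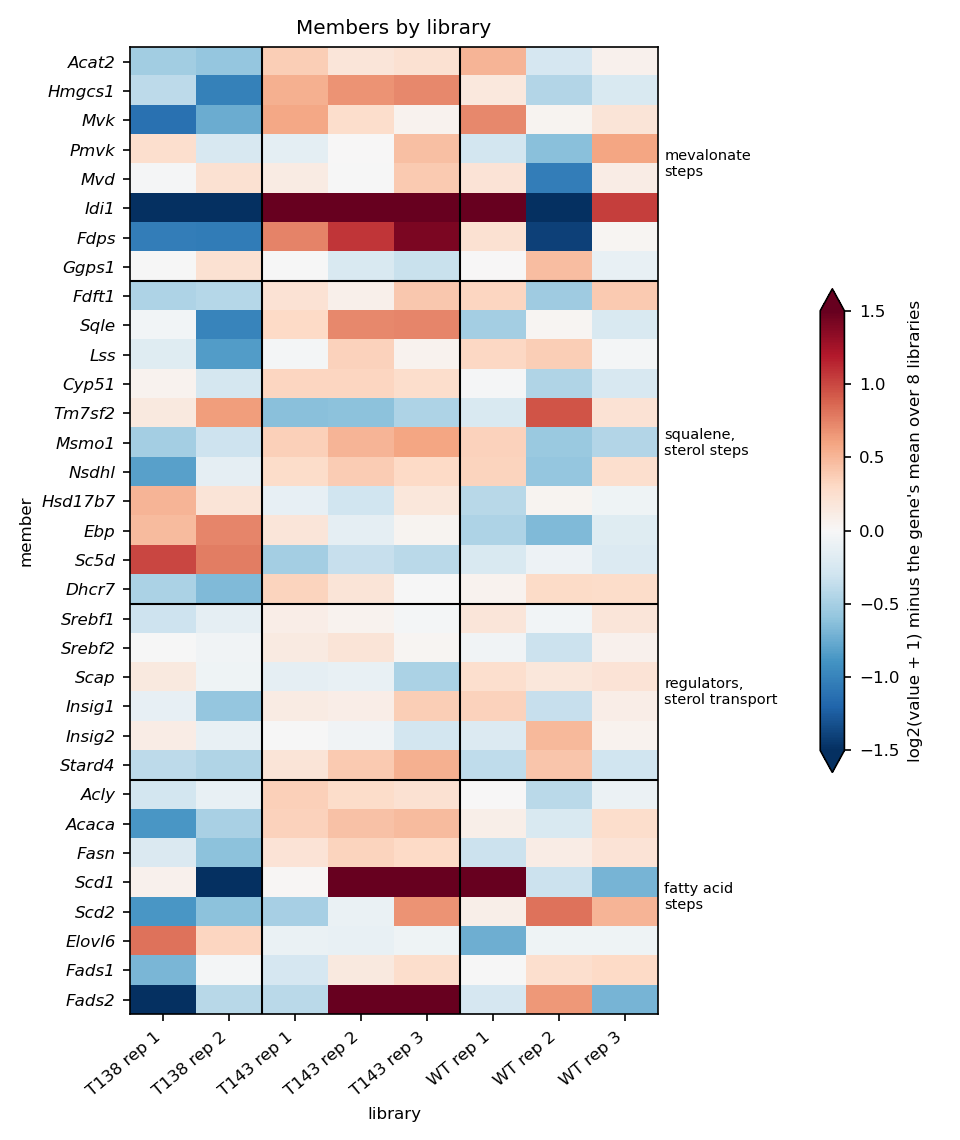
Colour shows log2(value + 1) of each of the 33 members (rows, by role) in each of the 8 libraries (columns), minus the gene's mean over the libraries, clipped at the ends of the scale. Most members of the mevalonate and fatty acid rows are blue in T138 and red in T143, while Sc5d, Ebp, Hsd17b7 and Elovl6 are red in T138.

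The comparisons with WT gave fewer calls, and all 3 comparisons share groups. For T138 against WT 5 of 33 members passed (15.2%, against 11% of all genes), with 2 higher (6.06%, against 5.74%) and 3 lower (9.09%, against 5.3%), while edgeR on recovered reads gave 3 higher and 1 lower. Both T138 libraries lay above WT for 4 members (12.1%, against 17.7%) and below it for 10 (30.3%, against 19.8%). Without T138 replicate 2 there was 1 call (3.03%, against 4.87% of all genes). There were 2 (6.06%) without T138 replicate 1 (6.44% of all genes), WT replicate 3 (7.05%) or the neutrophil-rich library of each line (6.02%), so that the share of members was then near or below that of all genes. For T143 against WT 6 members passed (18.2%, against 23.8%), a share below that of all genes, with 5 higher (15.2%, against 11.7%) and 1 lower (3.03%, against 12.1%). The T143 libraries lay above WT for 8 members (24.2%, against 20%) and below it for 3 (9.09%, against 20.7%). Median centring left 2 higher and 1 lower, with Acly (adjusted p = 0.199) and Cyp51 (0.148) among the calls lost. In this comparison the share of members was below that of all genes in 18 of 19 alternatives, and both were 0 with the myeloid covariate. Leaving out T143 replicate 1 gave 3 calls, T143 replicate 3, WT replicate 2 or WT replicate 3 gave 1 call each, and T143 replicate 2 gave 0 by limma, with 8 members at an unadjusted p under 0.05. Without the neutrophil-rich library of each line 1 member passed, and without both libraries whose source names differ from their titles 3 passed. With the myeloid covariate limma called 0 genes of all 15547 in either comparison with WT, members included, and 4 members (T138 against WT) and 2 (T143 against WT) had an unadjusted p under 0.05. For T138 against WT without that covariate, edgeR called 4 members (12.1%, against 8.22% of all genes) and DESeq2 7 (21.2%, against 15.9%). For T143 against WT, edgeR called 6 (18.2%, against 21%) and DESeq2 8 (24.2%, against 31%).

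**Figure D2:**
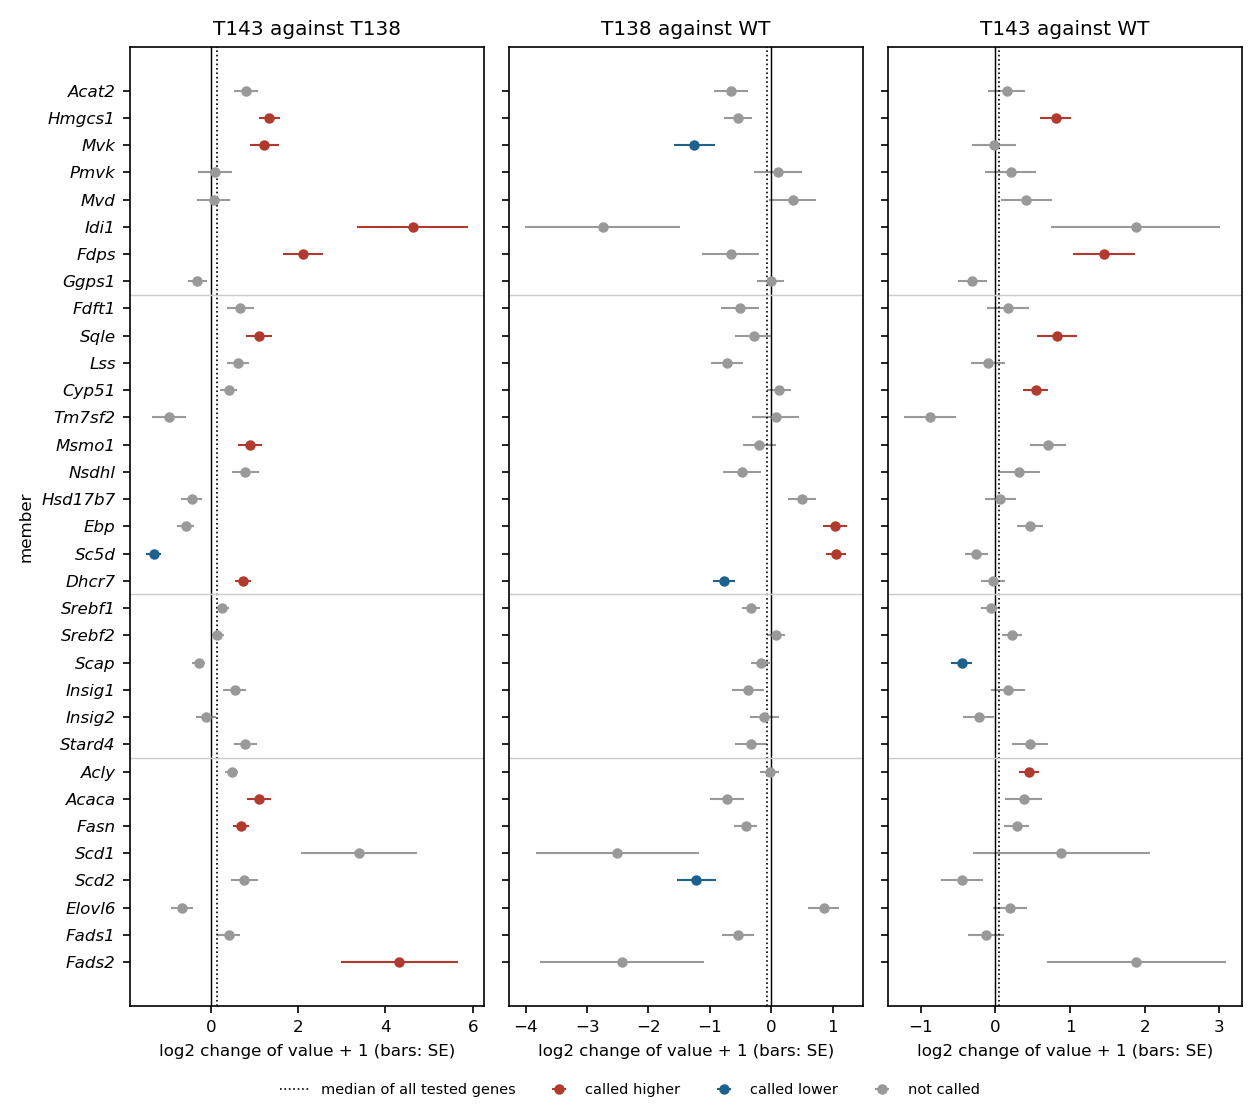
Points give the log2 change of value + 1 for each member in the 3 comparisons, with bars of 1 SE, and colour marks members with an adjusted p under 0.05. In T143 against T138, 25 of 33 points lie above 0. The median of all tested genes is the dotted line. It was 0.15 in that comparison, so most tested genes lay above 0 there too.

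Of the 8 mevalonate genes, 4 were called higher in T143 than in T138 (50%, against 10.8% of all genes). Hmgcs1, which encodes the cytosolic HMG-CoA synthase that condenses acetoacetyl-CoA with acetyl-CoA (chromosome 13, 119690351 to 119708260 in GRCm38), was at 651 and 423 (T138), 1239.8, 1364 and 1407 (T143) and 958, 634 and 728 (WT). All T143 libraries were above all others, and WT replicate 1 was the highest outside T143. The means were 537 ± 161 (SD, n = 2), 1337 ± 86.9 (n = 3) and 773 ± 167 (n = 3). The log2 change was 1.34 ± 0.23 (adjusted p = 0.00298) against T138 and 0.81 ± 0.21 (adjusted p = 0.0172) against WT. The first of these calls held when any single library was left out, with adjusted p up to 0.0403. The second was lost when T143 replicate 2 or 3, or WT replicate 2 or 3, was left out (adjusted p up to 0.0617).

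Fdps, the farnesyl diphosphate synthase that feeds both squalene and protein prenylation (chromosome 3, 89093588 to 89101967), was at 97.4 and 96.5 (T138), 336, 421 and 535 (T143) and 236, 75.6 and 204 (WT). Its T138 libraries were nearly equal, WT replicate 2 lay below them, and all T143 libraries lay above WT. Changes were 2.11 ± 0.46 (adjusted p = 0.0101) against T138 and 1.45 ± 0.41 (adjusted p = 0.0278) against WT. Leaving out either T138 library raised the first adjusted p to as much as 0.065, and leaving out T143 replicate 2, T143 replicate 3 or WT replicate 2 raised the second to as much as 0.0968. Transcripts of 6 other annotated genes match 91.4% of the Fdps transcript at 95% identity or more, so its level depends on how reads shared with them were counted. Of its exon bases 26.7% lie in exons of Gm43738 on the same strand.

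Mvk, mevalonate kinase (chromosome 5, 114444264 to 114460591), was at 89.6 and 116.8 (T138), 295, 235 and 203 (T143) and 323, 202 and 225 (WT). T138 was low, and the T143 and WT libraries overlapped. The log2 change was 1.23 ± 0.33 (adjusted p = 0.025) for T143 against T138 and -1.25 ± 0.33 (adjusted p = 0.0363) for T138 against WT. The first call was lost without T138 replicate 1, T138 replicate 2, T143 replicate 1 or T143 replicate 2 (adjusted p up to 0.115). The second was lost without either T138 library, T143 replicate 2, WT replicate 1 or WT replicate 3 (up to 0.16). By edgeR the second was lost too (adjusted p = 0.0559).

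Idi1, the isopentenyl diphosphate isomerase (chromosome 13, 8885606 to 8892396), was detected in few reads, at 0 and 0 (T138), 27.9, 19.1 and 24.8 (T143) and 20.7, 0 and 12.9 (WT). Both T138 libraries and WT replicate 2 had no read, and 33.3% of the transcript is matched by other genes. The T143 mean was at least 8.7-fold higher than the limit of 3 reads per library in T138 (2.74 units), and the test gave adjusted p = 0.0263. The call was lost without either T138 library or any T143 library (adjusted p up to 0.113), and by edgeR (0.0616).

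The other 4 mevalonate genes passed in no comparison by limma or edgeR, and DESeq2 called Acat2 higher in T143 than in T138. Acat2, the cytosolic thiolase of the first step, was at 205 and 196 (T138), 380.1, 333 and 347 (T143) and 420.1, 248 and 307 (WT). Its T138 libraries lay below all others, with a change of 0.81 ± 0.27 (adjusted p = 0.0589) for T143 against T138. Transcripts of 2 other genes match 65.6% of its length. Pmvk and Mvd, the next kinase and the decarboxylase, and Ggps1, which makes geranylgeranyl diphosphate, had changes of 0.09, 0.07 and -0.30 in that comparison. Of the 8 mevalonate changes 7 were above 0, where the median of all genes was 0.15. T143 and T138 overlapped for Pmvk and Mvd.

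**Figure D3:**
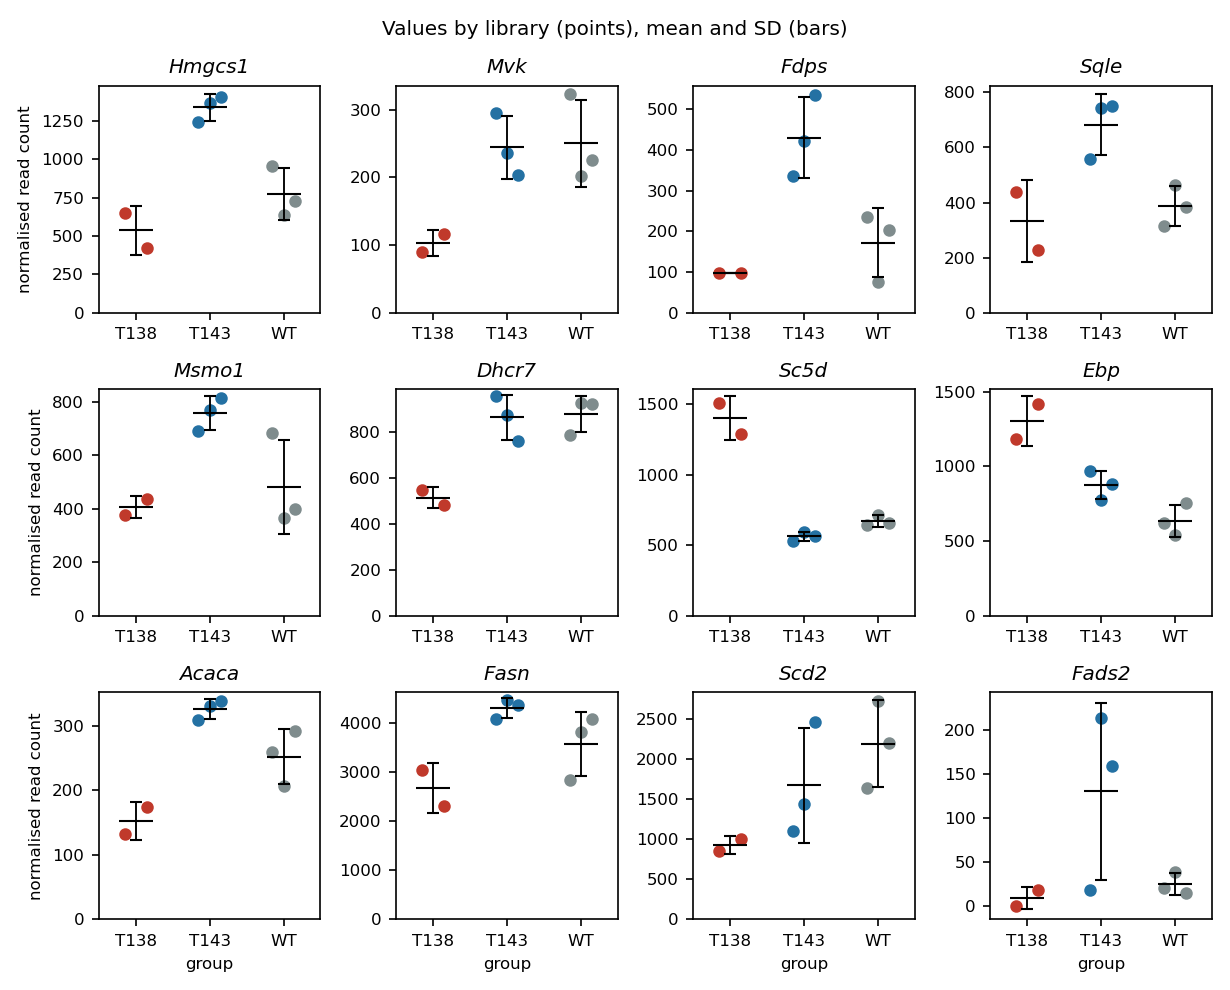
Normalised read counts (vertical axes, from 0) of 12 members in each library (points), with the mean and SD of each group (black bars). T143 points lie above T138 points for 10 of the panels shown and below for Sc5d and Ebp, and in the Fads2 panel T143 replicate 1 lies beside T138 replicate 2.

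All 11 genes of the squalene and sterol steps separated T143 from T138 without overlap. Of them 7 were higher in T143 (63.6%, against 28% of all genes) and 4 lower (36.4%, against 23.7%). The test called 3 of the 11 higher (27.3%, against 10.8% of all genes) and 1 lower (9.09%, against 10.2%). Sqle, squalene epoxidase (chromosome 15, 59315092 to 59331193), was at 437 and 226 (T138), 557, 743 and 750.0 (T143) and 315, 462 and 384 (WT). The T143 libraries were above all others, and T138 replicate 2 was the lowest. Changes were 1.10 ± 0.30 (adjusted p = 0.0265) against T138 and 0.82 ± 0.27 (adjusted p = 0.0494) against WT. Both calls were near the threshold: the first was lost without T138 replicate 2, T143 replicate 2 or T143 replicate 3 (adjusted p up to 0.218) and with the replicate number as a block (0.0558), and the second without any T143 or any WT library (up to 0.155).

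Msmo1, the methyl sterol oxidase (chromosome 8, 64718123 to 64733578), was at 377 and 435 (T138), 691, 769 and 814 (T143) and 685, 364 and 398 (WT). WT replicate 1 lay just below the T143 libraries, and the other WT libraries lay near T138. The change was 0.90 ± 0.27 (adjusted p = 0.0379) against T138 and 0.71 ± 0.24 (adjusted p = 0.0565) against WT. The call against T138 was kept only without WT replicate 1 or WT replicate 2 (adjusted p up to 0.164 otherwise), and the block gave 0.0556. Cyp51, the lanosterol demethylase (chromosome 5, 4080674 to 4104697), was at 751 and 605 (T138), 911, 909 and 873 (T143) and 719, 532 and 615 (WT). It was called against WT, at 0.54 ± 0.17 (adjusted p = 0.0416), a call lost without any T143 library, WT replicate 2 or WT replicate 3 (up to 0.124), and not against T138, at 0.41 ± 0.19 (adjusted p = 0.147).

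Dhcr7, the reductase of the last step (chromosome 7, 143823167 to 143848410), was at 547 and 481 (T138), 955, 870.5 and 759.9 (T143) and 786, 925 and 919.6 (WT). T138 was low and the T143 and WT libraries overlapped. Changes were 0.74 ± 0.18 (adjusted p = 0.0159) for T143 against T138 and -0.77 ± 0.18 (adjusted p = 0.0213) for T138 against WT. Without T138 replicate 2 or T143 replicate 2 the first call was lost (adjusted p up to 0.108), and without T138 replicate 1, T138 replicate 2 or WT replicate 3 the second was (up to 0.133).

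Among the sterol genes, 4 had lower values in T143. Sc5d, the sterol desaturase of the step before Dhcr7 (chromosome 9, 42251592 to 42264300), was at 1509 and 1289.5 (T138), 529, 593 and 568 (T143) and 643, 718 and 657 (WT). T138 was above every other library, and T143 was below every WT library by a small margin. Changes were -1.31 ± 0.17 (adjusted p = 0.00073) for T143 against T138, 1.05 ± 0.17 (adjusted p = 0.00317) for T138 against WT and -0.25 ± 0.15 (adjusted p = 0.252) for T143 against WT. The first call held in all 19 alternatives, with log2 changes between -1.58 and -1.19. The second held in 18, and was lost with the myeloid covariate (0.55, adjusted p = 0.718).

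Ebp, the sterol isomerase that acts just before Sc5d (chromosome X, 8185329 to 8193512), was at 1184 and 1421 (T138), 967, 776 and 880.0 (T143) and 619, 540.0 and 752 (WT). The groups were ordered T138, T143 and WT without overlap. The change was 1.04 ± 0.20 (adjusted p = 0.00737) for T138 against WT, a call lost without T138 replicate 2 (adjusted p = 0.0777), and -0.57 ± 0.20 (adjusted p = 0.0599) for T143 against T138. DESeq2 called Ebp lower in T143 than in T138. Hsd17b7, the sterol ketone reductase, and Tm7sf2, the sterol double-bond reductase, changed by -0.44 and -0.95 in T143 against T138 without passing. Tm7sf2 was at 194 and 273 (T138), 113, 115 and 127 (T143) and 150.2, 339 and 204 (WT), and T143 was the lowest group. The 4 genes with lower values in T143 act between lanosterol and the last reduction, as do Cyp51, Msmo1 and Nsdhl, whose values were higher there. Ebp and Nsdhl are X-linked, and T143 differs from the other groups in Xist.

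Squalene synthase (Fdft1), lanosterol synthase (Lss) and the decarboxylating dehydrogenase Nsdhl did not pass, with changes of 0.68, 0.63 and 0.79 for T143 against T138. Fdft1 was at 205 and 209 (T138), 328, 297 and 374 (T143) and 353, 195 and 370.1 (WT), and transcripts of 2 other genes match 54.7% of its length. Of its exon bases 18.3% overlap exons of Ctsb on the opposite strand. For Lss and Fdft1 the T143 and WT libraries overlapped. Of the Tm7sf2 exon bases 12.1% lie in exons of Vps51 on the same strand.

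In each library the mevalonate and sterol genes together took a small share of signal, which was 0.056 and 0.0526% (T138), 0.063, 0.0639 and 0.0663% (T143) and 0.0563, 0.0495 and 0.0538% (WT). The T143 libraries were the highest, and T138 and WT overlapped. The fatty acid genes took 0.0569 and 0.0555% (T138), 0.0767, 0.0821 and 0.0868% (T143) and 0.0639, 0.0713 and 0.0753% (WT), and the 3 ranges did not overlap. Within T143 both shares were highest in replicate 3, where the myeloid markers (3.7%) and cell cycle genes (0.133%) were highest too. Among the 10 members called higher in T143 over T138, 5 were highest in that T143 library, and 6 were highest in the T138 library with more myeloid signal. Among all 33 members these counts were 15 and 19.

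**Figure D4:**
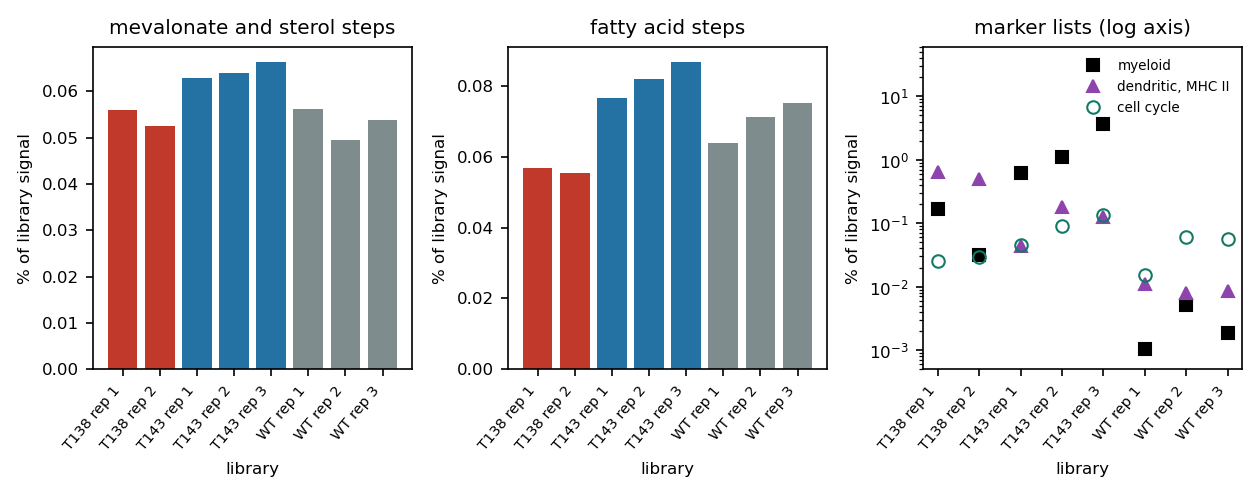
Bars give the share of library signal, in percent, taken by the 19 mevalonate and sterol genes and by the 8 fatty acid genes in each library, and points give the myeloid, dendritic and cell cycle marker lists on a log axis. Bars are highest in the 3 T143 libraries, where the myeloid share lies between 0.629 and 3.7%.

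Between T143 and T138, limma and edgeR each called 0 of the 6 genes of regulation and sterol transport, with 1 (Stard4) at an unadjusted p under 0.05, and DESeq2 called Stard4 alone. Srebf2, which encodes SREBP-2 (chromosome 15, 82147269 to 82205379), was at 5213 and 5062 (T138), 5769, 5966 and 5355 (T143) and 5033, 4205 and 5489 (WT), with a change of 0.15 ± 0.15 (adjusted p = 0.508). Srebf1, which encodes SREBP-1 (chromosome 11, 60199084 to 60224186), was at 1814 and 2051 (T138), 2419.9, 2335 and 2207 (T143) and 2549.8, 2189 and 2548 (WT), with a change of 0.27 ± 0.14 (adjusted p = 0.208). For both, all T143 libraries lay above both T138 libraries, and Srebf1 was highest in WT replicate 1. Messenger RNA of these genes does not measure the cleaved, active proteins.

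Scap, which encodes the SREBP escort protein (chromosome 9, 110333288 to 110384949), was at 2360.2 and 2046 (T138), 1946, 1975 and 1545 (T143) and 2551, 2414 and 2475 (WT). It was called lower in T143 than in WT, at -0.45 ± 0.14 (adjusted p = 0.037), with every T143 library below every library of the other groups. That call was lost without T143 replicate 2, T143 replicate 3 or any WT library (adjusted p up to 0.108). Insig1, itself an SREBP target, was at 404 and 294 (T138), 479.6, 471 and 566 (T143) and 557, 345 and 470.4 (WT), and its change of 0.55 ± 0.26 (adjusted p = 0.156) for T143 against T138 did not pass. Insig2, its relative that is less tied to sterol supply, was at 603 and 519 (T138), 557, 541 and 460.4 (T143) and 486, 786 and 578 (WT), with overlap between all groups. Stard4, a cytosolic sterol carrier and SREBP target, was at 352 and 339.5 (T138), 529, 612 and 671 (T143) and 355, 621 and 376 (WT), with a change of 0.80 ± 0.26 (adjusted p = 0.0548) for T143 against T138. Insig1 and Stard4 lay higher in T143 than in T138 in every library, as did Srebf1 and Srebf2, and Scap lay lower. For T138 against WT, limma, edgeR and DESeq2 called 0 of the 6, and limma had 1 (Srebf1) at an unadjusted p under 0.05.

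Of the 8 fatty acid genes, 3 were called higher in T143 than in T138 (37.5%, against 10.8% of all genes). Fasn, the fatty acid synthase (chromosome 11, 120805958 to 120825166), was at 3029 and 2311 (T138), 4068, 4463 and 4353 (T143) and 2830.1, 3811 and 4071 (WT). T143 exceeded both T138 libraries, and WT replicate 3 reached the lowest T143 library. The change against T138 was 0.70 ± 0.18 (adjusted p = 0.0228), a call lost without T138 replicate 2 or T143 replicate 2 (adjusted p up to 0.202). Acaca, the cytosolic acetyl-CoA carboxylase that commits carbon to fatty acids (chromosome 11, 84129635 to 84401651), was at 132 and 174 (T138), 308, 329.6 and 338 (T143) and 258, 207 and 291 (WT). T138 was below all other libraries and T143 above them, with 1.10 ± 0.28 (adjusted p = 0.0188) against T138, a call lost without T138 replicate 1 or T143 replicate 2 (up to 0.0957). A transcript of 1 other annotated gene matches 67.8% of the Acaca transcript.

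Acly, the ATP-citrate lyase that supplies cytosolic acetyl-CoA to both pathways (chromosome 11, 100476352 to 100528000), was at 3619 and 4053 (T138), 5590.2, 5306 and 5129 (T143) and 4393, 3289 and 4111 (WT). Each T143 library was above all others. It was called against WT, at 0.45 ± 0.14 (adjusted p = 0.0374), and missed the threshold against T138, at 0.48 ± 0.15 (adjusted p = 0.0503). DESeq2 called it higher in T143 than in T138. The call against WT held only without WT replicate 1 among the 8 libraries left out in turn (adjusted p up to 0.0991).

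The desaturases were uneven. Scd2, a stearoyl-CoA desaturase (chromosome 19, 44293676 to 44306864), was at 846 and 1008 (T138), 1099, 1446 and 2474 (T143) and 1647, 2736 and 2207 (WT). T138 was below every other library, and T143 replicate 3 and the WT libraries were the highest. Scd2 fell in T138 against WT, at -1.22 ± 0.31 (adjusted p = 0.0313), a call lost without either T138 library, WT replicate 2 or WT replicate 3 (adjusted p up to 0.174) and by edgeR (0.0836). DESeq2 called Scd2 higher in T143 than in T138. Its paralog Scd1 was low and uneven, at 22.6 and 0 (T138), 21.9, 81.5 and 69.3 (T143) and 83.3, 17.0 and 12.9 (WT), with no read in T138 replicate 2, and passed no comparison.

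Fads2, the first desaturase of polyunsaturated fatty acid synthesis (chromosome 19, 10062765 to 10101503), was at 0 and 17.8 (T138), 17.9, 214 and 158 (T143) and 20.0, 38.3 and 14.4 (WT). T143 replicates 2 and 3 were high, and T143 replicate 1 lay beside T138 replicate 2. The test gave 4.32 ± 1.34 (adjusted p = 0.0434) for T143 against T138, but only 7 of 19 alternatives kept the call (adjusted p 0.00864 to 0.457 over them), and it was lost by edgeR (0.0955), with a pseudocount of 8 (0.0571), and without T138 replicate 1, T143 replicate 2, T143 replicate 3 or any WT library (up to 0.282). Fads1, the desaturase that follows it, was at 251 and 399 (T138), 340.3, 450.5 and 486 (T143) and 405, 484 and 499 (WT). Elovl6, which extends palmitate (chromosome 3, 129532386 to 129638495), was highest in T138, at 974 and 694 (T138), 519, 515 and 529.7 (T143) and 334, 530.4 and 531 (WT), with -0.66 ± 0.25 (adjusted p = 0.0858) for T143 against T138 and 0.85 ± 0.25 (adjusted p = 0.0532) for T138 against WT. Neither change of Elovl6 passed by limma, while edgeR and DESeq2 called it higher in T138 than in WT.

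Set per kilobase of the transcript, the levels of the members spanned a wide range. The highest on average over all libraries were Srebf2, at 1010, 1120 and 967 normalised reads per kb in T138, T143 and WT, and Acly, at 873, 1220 and 895. Srebf1 followed at 449, 540 and 565. Idi1, Scd1, Fads2 and Acaca had the lowest levels, at 4.35, 7.98, 19.1 and 28.2 per kb. By this mean, the regulators Srebf2, Srebf1 and Scap stood among the 5 highest members, with Acly and Ebp, although in WT alone Ebp (366 per kb) was below Scd2 (403). In T138, Ebp (747 per kb) exceeded Srebf1 (449), and Sc5d was at 292 against 118 in T143.

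**Figure D5:**
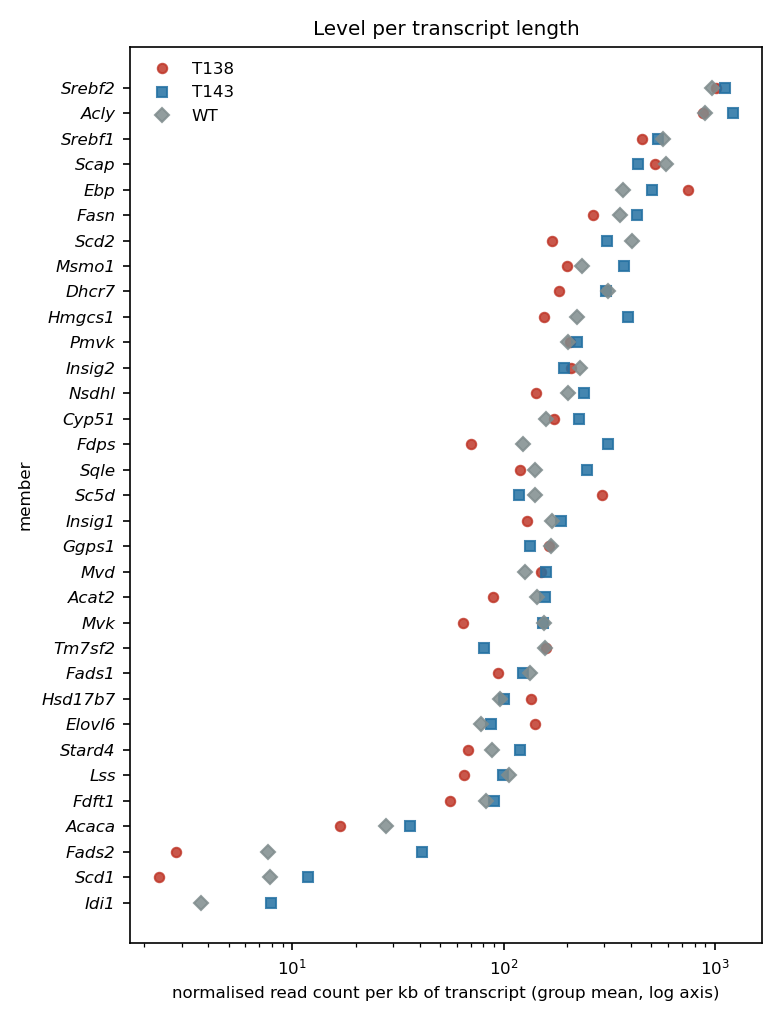
Group means of normalised read count per kb of transcript (log axis) for the 33 members, ordered by the mean over all libraries. Srebf2 and Acly are at the top, the T138 points of Ebp and Sc5d lie right of the other groups, and Idi1 has no T138 point because both libraries are at 0.

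The start-site windows of the members shared short sequences that the choice of members did not use. Windows of 250 bases before to 50 bases after the annotated start were found for 26 of 33 members in RefSeq (GRCm38.p6), some with several starts, and a gene was counted if any window held the motif. CCAAT, the box bound by NF-Y, a partner of SREBP, was present on either strand in 21 of 26 members (80.8%), against 41.1% of 27025 genes with a window and 42.3% of those tested here. All 9 sterol-step genes with a window held it, and 2 of 5 fatty acid genes did. Of its 46 matches in members, 29 began within 120 bases upstream of the start. GGGCGG, the box bound by Sp1, was in 21 of 26 members (80.8%), against 38.2% of all genes and 64.6% of the genes tested. The sterol regulatory element TCACNCCAC was in 1 member, Hmgcs1 (3.85%, against 1.44% of all genes and 1.45% of those tested), and the shorter CACNCCAC, which every TCACNCCAC also contains, in 3 (11.5%, against 7.12% of all genes and 7.73% of those tested). CACGTG, an E-box that SREBPs can also bind, was in 5 members (19.2%, against 8.09% of all genes and 11.2% of those tested). These are matches of letters within short windows and not measured binding.

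The 6 windows below are printed to show these matches in members that changed between T143 and T138, 5 called higher and Sc5d called lower. Capitals mark every match to the motifs searched above on either strand, and a match to the other strand appears as its reverse complement. Each runs 5′ to 3′ along the gene's strand in GRCm38.p6.
Hmgcs1, chr13:119690101-119690400, plus strand: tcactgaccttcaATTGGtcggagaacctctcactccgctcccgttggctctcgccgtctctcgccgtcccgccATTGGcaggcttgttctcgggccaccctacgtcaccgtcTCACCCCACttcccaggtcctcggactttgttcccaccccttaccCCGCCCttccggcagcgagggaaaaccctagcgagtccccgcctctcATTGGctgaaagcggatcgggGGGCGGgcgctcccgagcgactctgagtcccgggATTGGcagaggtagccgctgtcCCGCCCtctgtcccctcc
Idi1, chr13:8885356-8885655, plus strand: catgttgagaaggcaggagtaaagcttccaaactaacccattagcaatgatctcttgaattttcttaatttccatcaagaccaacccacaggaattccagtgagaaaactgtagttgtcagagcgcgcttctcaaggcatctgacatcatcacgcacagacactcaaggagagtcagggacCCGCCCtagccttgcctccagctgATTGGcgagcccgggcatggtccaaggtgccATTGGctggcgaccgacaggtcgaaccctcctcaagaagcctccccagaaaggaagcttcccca
Mvk, chr5:114444019-114444318, plus strand: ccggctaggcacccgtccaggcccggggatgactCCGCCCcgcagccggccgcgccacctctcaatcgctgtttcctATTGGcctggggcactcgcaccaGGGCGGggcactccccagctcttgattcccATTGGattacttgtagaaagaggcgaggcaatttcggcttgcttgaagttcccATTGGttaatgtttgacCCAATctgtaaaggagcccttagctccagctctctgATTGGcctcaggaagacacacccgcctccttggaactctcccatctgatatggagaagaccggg
Msmo1, chr8:64733529-64733828, minus strand: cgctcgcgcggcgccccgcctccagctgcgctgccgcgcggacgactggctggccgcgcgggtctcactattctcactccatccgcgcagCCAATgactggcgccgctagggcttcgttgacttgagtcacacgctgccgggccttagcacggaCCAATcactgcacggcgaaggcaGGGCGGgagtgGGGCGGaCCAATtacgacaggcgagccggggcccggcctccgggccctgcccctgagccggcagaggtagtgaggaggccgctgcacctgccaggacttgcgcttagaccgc
Fasn, chr11:120824498-120824797, minus strand: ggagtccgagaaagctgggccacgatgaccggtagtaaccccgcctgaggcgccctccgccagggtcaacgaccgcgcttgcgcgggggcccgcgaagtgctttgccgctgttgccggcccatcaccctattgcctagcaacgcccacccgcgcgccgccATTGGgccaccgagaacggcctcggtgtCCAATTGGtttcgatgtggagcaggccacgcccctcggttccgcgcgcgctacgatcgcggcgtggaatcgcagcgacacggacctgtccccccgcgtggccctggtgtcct
Sc5d, chr9:42264251-42264550, minus strand: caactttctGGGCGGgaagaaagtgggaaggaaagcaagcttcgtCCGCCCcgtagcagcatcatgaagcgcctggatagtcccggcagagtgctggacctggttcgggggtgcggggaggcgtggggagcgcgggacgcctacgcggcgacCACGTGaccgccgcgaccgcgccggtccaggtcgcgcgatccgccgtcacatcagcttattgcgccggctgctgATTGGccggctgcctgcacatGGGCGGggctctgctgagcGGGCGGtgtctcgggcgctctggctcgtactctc
In the Hmgcs1 window the sterol regulatory element begins 137 bases upstream of the start, and CCAAT matches begin at -237, -176, -45 and 11. Mvk held 5 CCAAT matches, Msmo1 and Fasn 3 each and Idi1 2. The Sc5d window, of the gene that fell in T143, held 1 CCAAT match at -24, 4 to the Sp1 box and a CACGTG at -98. CCAAT was found in 7 of the 9 called members with a window (77.8%). The share was 80.8% of all members with a window and 42.3% of the genes tested. The windows of Acaca and Fads2, both called, held no CCAAT and are not printed.

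The wider pathway was described with 5 lists of related genes. Cleavage, degradation and DNA-binding partners of SREBP numbered 11, of which limma and edgeR each called 0 in T143 against T138, with 3 at an unadjusted p under 0.05, and DESeq2 called 1. The list's median change was 0.09. Of 12 genes of the isoprenoid branches, 1 rose and 2 fell (median 0.10). Fntb, the beta subunit of farnesyltransferase, was at 181 and 287 (T138), 782, 676 and 419.6 (T143) and 509, 594 and 562 (WT), a change of 1.40 ± 0.30 (adjusted p = 0.00871). Rabggta, a subunit of the Rab prenyltransferase, was at 1734 and 1737 (T138), 691, 887 and 752 (T143) and 1267, 1228 and 1411 (WT) (-1.17 ± 0.16 (adjusted p = 0.00112)), and Coq2, of ubiquinone synthesis, fell by 0.63 on the log2 scale. The farnesyltransferase subunit was therefore lowest in T138 and the Rab prenyltransferase subunit highest there.

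The fourth list holds genes that supply acetyl-CoA and NADPH or elongate and activate fatty acids. Of the 20 tested genes (21 listed) 6 were called higher in T143 than in T138 by limma and the other 14 did not pass (median 0.43), while DESeq2 called 7 higher and 1 lower. Hsd17b12, of fatty acid elongation, was at 477 and 552 (T138), 1081, 905 and 994 (T143) and 582, 540.0 and 605 (WT), a change of 0.95 ± 0.18 (adjusted p = 0.0045) against T138 and 0.78 ± 0.16 (adjusted p = 0.00541) against WT. Acss2, which makes acetyl-CoA from acetate, was at 394 and 193 (T138), 846, 837 and 587 (T143) and 315, 227 and 236 (WT), with 1.43 ± 0.32 (adjusted p = 0.0118) and 1.54 ± 0.29 (adjusted p = 0.00405). For both genes every T143 library was above every other library. Pgd, of the NADPH-producing pentose phosphate pathway, was at 1044 and 811 (T138), 2297, 3049 and 7974 (T143) and 921, 915 and 1021 (WT), and its highest library, T143 replicate 3, was also the one with the most myeloid signal.

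Sterol esterification, oxysterol and LXR genes were divided, with 2 of 14 tested higher and 2 lower (median -0.20, 15 listed). Osbpl3, of the oxysterol-binding protein family, was at 4476 and 4732 (T138), 488, 788 and 959 (T143) and 855, 1526 and 1604 (WT), a change of -2.68 ± 0.31 (adjusted p = 0.000443) for T143 against T138 and 1.85 ± 0.31 (adjusted p = 0.00442) for T138 against WT. Npc2, a lysosomal cholesterol carrier, was at 4028 and 3844 (T138), 12442, 9006 and 6105 (T143) and 4717, 2732 and 4241 (WT) (1.16 ± 0.29 (adjusted p = 0.0178)), and Nr1h2, the sterol-sensing receptor LXR-beta, changed by -0.57 ± 0.16 (adjusted p = 0.0309). T138 thus had the highest Osbpl3 and T143 the highest Npc2. Of 20 genes of fatty acid oxidation 1 rose and 1 fell (median 0.33). Acaa2, the thiolase of mitochondrial beta-oxidation, was at 605 and 623 (T138), 1473, 1226 and 1052 (T143) and 1165, 957 and 1120.2 (WT) (1.01 ± 0.18 (adjusted p = 0.00393)), and Eci1, an enoyl-CoA isomerase of the same pathway, at 569 and 521 (T138), 259, 328 and 309 (T143) and 309, 262 and 352 (WT) (-0.87 ± 0.24 (adjusted p = 0.0259)). Calls by limma either way were 0 of 11 for SREBP partners and 3 of 12 for isoprenoid branches. There were 4 of 14 for esterification, oxysterol and LXR genes, 6 of 20 for supply and activation and 2 of 20 for oxidation. These compare with 21% of all genes in this comparison. All 6 supply calls were higher, and 10.8% of all genes were called higher.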

How the data were processed

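RNA of sorted CD4-positive, Foxp3-positive T cells was sequenced with a stranded poly(A) kit, per the labels' protocols. The table deposited by the authors holds a scaled signal per gene (normalised read counts), and every library sums to 15.59 M. All values (100%) correspond to whole reads within 0.01 once each library's scaling is undone. CASAVA 1.8.2, STAR 2.5.2b, HOMER 4.8, edgeR and mm10 are named in the submitters' processing notes. For strand and multi-mapped reads the counting rule was not given in the sources used here.

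Tests used limma 3.58.1 (R 4.3.3) on log2(value + 1) with trended, robust empirical Bayes over all 8 libraries and the 15547 genes that reached 1 in 2 or more libraries, two-sided, with Benjamini-Hochberg adjustment over all genes. Changes of low genes depend on the pseudocount: this scale draws those of low values toward 0, but where a library of a group is at 0 (Idi1, Scd1, Fads2) the change can exceed that of the group means. edgeR 4.0.16 and DESeq2 1.42.0 ran on recovered reads. The limma procedure was tested on simulated data. Replicates are separate samples in the labels, with nothing on separate mice, so that the spread behind each p-value is between libraries and may be technical.

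The members and lists were chosen with earlier results of these data known. All 33 members are named. Called members get values per library, as do members without overlap other than Ggps1, Lss, Nsdhl and Hsd17b7. Up to 3 called genes with the smallest p in T143 against T138 are named per wider list. Positions are from RefSeq (GRCm38.p6), lengths from GENCODE transcripts for 33 of 33, and copies were found with BLAST 2.17.0 (95% identity over at least 100 bases). Values of some genes in the wider lists are not reported here.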

Additional observations from a re-analysis of the deposited data

How the results depend on the processing

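In all, 19 alternatives were run on the 3 counts of members called and on the 22 single calls. Of these, 2 scalings, 2 filters or pseudocounts, 2 count models, a fit of 2 groups, the replicate block and libraries left out kept the direction of all 22. A covariate for the myeloid marker level reversed 3, none passing: Mvk for T138 against WT (0.43), Scap for T143 against WT (0.039) and Sqle for T143 against WT (-2.30). That covariate left 1, 0 and 0 members called for T143 against T138, T138 against WT and T143 against WT, where 11, 5 and 6 had passed. Of all genes it left 5.13%, 0% and 0%. The myeloid markers themselves differed between the groups (median log2 change 3.99, 7.96 and 12.46, in that order). The covariate therefore cannot be told apart from the groups, and nothing is concluded from the lost or reversed calls. Without the neutrophil-rich library of each line 5, 2 and 1 passed. Median centring left 8 members for T143 against T138 (24.2%, against 19.2% of all genes) and 3 for T143 against WT (9.09%, against 22.9%). Leaving out both libraries whose source names differ from their titles left 3 for T143 against WT (9.09%, against 18.1%). Leaving out single libraries gave 3 to 15, 1 to 5 and 0 to 6 calls. The causes were not tested. With replicate number as a replicate block 9, 5 and 5 members passed (27.3%, 15.2% and 15.2%, against 20%, 11.6% and 25.3% of all genes). Same-numbered libraries deviated from their group means together weakly at most (correlations -0.062 to 0.055 over 7 pairs). Deviations of the 2 T138 libraries mirror each other, so the 7 pairs are not independent and the check cannot decide on pairing. The numbers were not taken to pair the libraries. Low read counts limit Idi1, Scd1 and Fads2, which had libraries with no or few reads.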
